A study of Mus musculus with 6 samples.

Results

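The circadian clock genes were followed in flow-sorted neutrophils of mouse blood, in 3 libraries from mice given AVP and 3 control libraries (labelled negative control). Libraries of both groups carry the label of administration day 30. The 10 genes, Per1, Per2, Cry1, Cry2, Arntl, Clock, Nr1d1, Nr1d2, Dbp and Bhlhe40, were chosen by name, and all 10 were among the 47561 features that each library lists. The labels give AVP as an abbreviation only. Strain, age, dose, route and the hour at which blood was taken were not given in the labels. The labels do not tie the libraries to single mice, so every p-value refers to the spread among these libraries, which may be technical.

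The mammalian clock is a loop of transcription factors that repress their own activators. ARNTL (also called BMAL1) pairs with CLOCK and activates the Per and Cry genes through E-box sequences, and the PER and CRY proteins then inhibit that pair. The nuclear receptors NR1D1 and NR1D2 (REV-ERB alpha and beta) repress Arntl, while the output factors DBP and BHLHE40 act on further target genes. Per1 also responds directly to glucocorticoids and to cAMP signalling, and in mouse blood neutrophils Arntl is known to drive a daily cycle of ageing that involves Cxcl2, Cxcr2 and Cxcr4.

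The data show a set of low transcripts. Of these, 1 repressor, Per1, was higher in every AVP library than in any control library, as were 6.39% of the 8523 genes tested. The nuclear receptor Nr1d2 was lower in every AVP library, as were 7.63% of the genes tested. Its values were low, at 0, 0 and 1.45 FPKM with AVP, against a lowest control of 1.77 FPKM. Per2, a further repressor, had its highest values among the AVP libraries, while the repressor Cry1 was highest in a control library. Dbp and Arntl were listed at 0 in 2 of 3 AVP libraries each. No clock gene passed the threshold over all genes, and 2 of the 10, Nr1d1 and Cry2, were at or close to 0 in all 6 libraries.

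Promoter sequences are shown for the genes on which these differences turn, since clock factors act at short sequences near the start of transcription. Each window runs from 250 bases before a transcription start to 50 bases after it (RefSeq, build GRCm38.p6), is written 5′ to 3′ on the gene's strand, and has in capitals the matches to any motif searched. The window of the first Per1 start shown is at chr11:69098699-69098998 (plus strand), that of the second at chr11:69099902-69100201 (plus strand). The Arntl window is at chr7:113207261-113207560 (plus strand) and the Nr1d2 window at chr14:18239057-18239356 (minus strand). Per1 is annotated from 69095108 and Arntl from 113178471, so the windows of these genes lie inside them and not at their annotated 5′ ends.
Per1, first start: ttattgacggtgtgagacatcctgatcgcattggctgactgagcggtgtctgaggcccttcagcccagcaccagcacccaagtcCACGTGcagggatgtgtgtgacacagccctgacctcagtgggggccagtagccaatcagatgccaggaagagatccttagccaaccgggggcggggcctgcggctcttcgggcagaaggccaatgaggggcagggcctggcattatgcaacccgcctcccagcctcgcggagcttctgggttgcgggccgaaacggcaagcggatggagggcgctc
Per1, second start: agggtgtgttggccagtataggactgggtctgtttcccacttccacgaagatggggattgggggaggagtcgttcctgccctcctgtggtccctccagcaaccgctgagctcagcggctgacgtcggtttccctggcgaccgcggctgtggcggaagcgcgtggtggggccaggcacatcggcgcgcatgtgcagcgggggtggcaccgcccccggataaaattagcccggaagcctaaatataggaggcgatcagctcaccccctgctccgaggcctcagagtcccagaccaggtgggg
Arntl: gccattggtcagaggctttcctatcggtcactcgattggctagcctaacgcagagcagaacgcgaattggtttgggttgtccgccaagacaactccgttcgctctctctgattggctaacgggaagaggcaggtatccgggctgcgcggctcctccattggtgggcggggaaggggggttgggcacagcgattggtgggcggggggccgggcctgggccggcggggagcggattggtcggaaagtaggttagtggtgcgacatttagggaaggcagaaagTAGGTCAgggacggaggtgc
Nr1d2: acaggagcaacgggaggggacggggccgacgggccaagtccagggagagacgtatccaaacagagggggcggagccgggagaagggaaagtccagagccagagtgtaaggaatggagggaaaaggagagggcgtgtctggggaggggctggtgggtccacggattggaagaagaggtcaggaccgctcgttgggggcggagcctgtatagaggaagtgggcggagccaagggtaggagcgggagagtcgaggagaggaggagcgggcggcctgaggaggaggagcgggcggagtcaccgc

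The motifs searched on both strands were the E-box CACGTG, the related CACGTT, which differs from it in the last letter, the cAMP response element TGACGTCA, the D-box as TTATGTAA or TTACGTAA, the core TAGGTCA bound by ROR and REV-ERB receptors, and the glucocorticoid receptor half-site AGAACA. The first Per1 window held 1 E-box, which begins 166 bases before the start and which 7.15% of all 32817 promoter windows also hold. The Arntl window held 1 TAGGTCA core, beginning 30 bases after the start, and 2.61% of all windows hold this core. Cry1 had an E-box 60 bases and a CACGTT 79 bases before its start, and Cry2 (166 bases before) and Nr1d1 (28 bases before) each had a CACGTT, which 4.69% of windows hold. The 12 windows of the 8 clock genes in the table held none of the cAMP response element (1.79% of all windows), the 2 D-box forms (0.94% and 0.12%) or AGAACA (18.97%). The Dbp, Clock and Nr1d2 windows, the second Per1 window and an earlier Arntl window had no match at all, which says only that these letters are not there. Per2 and Bhlhe40 were not in the table.

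All values are FPKM, a fragment count set against both the length of the transcript and the size of the library, so levels of different genes can be compared. Ordered by the median over the 6 libraries, Dbp (4.30 FPKM), Per1 (4.19 FPKM), Per2 (3.66 FPKM) and Bhlhe40 (3.07 FPKM) came first, followed by Cry1 (2.06 FPKM), Nr1d2 (1.61 FPKM), Clock (0.894 FPKM) and Arntl (0.138 FPKM), with Cry2 and Nr1d1 at a median of 0. The ranges of neighbours in this order overlapped throughout, and none of the 10 genes was above the next in all 6 libraries. The median gene among those tested had a mean of 7.46 FPKM, above the mean of each clock gene (at most 6.10 FPKM, for Bhlhe40). Of the 10 genes, 7 were listed at 0 in at least 1 library. Such gaps were common at this level: of 2658 features with a mean of 2 to 5 FPKM, 52.4% were at 0 in at least 1 library. They remained at higher levels, in 17.9% of features with a mean of 10 to 20 FPKM and 6.85% at 20 to 50 FPKM. A value of 0 is therefore given only as listed, and no mean is given for a gene that has one.

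**Figure D1:**
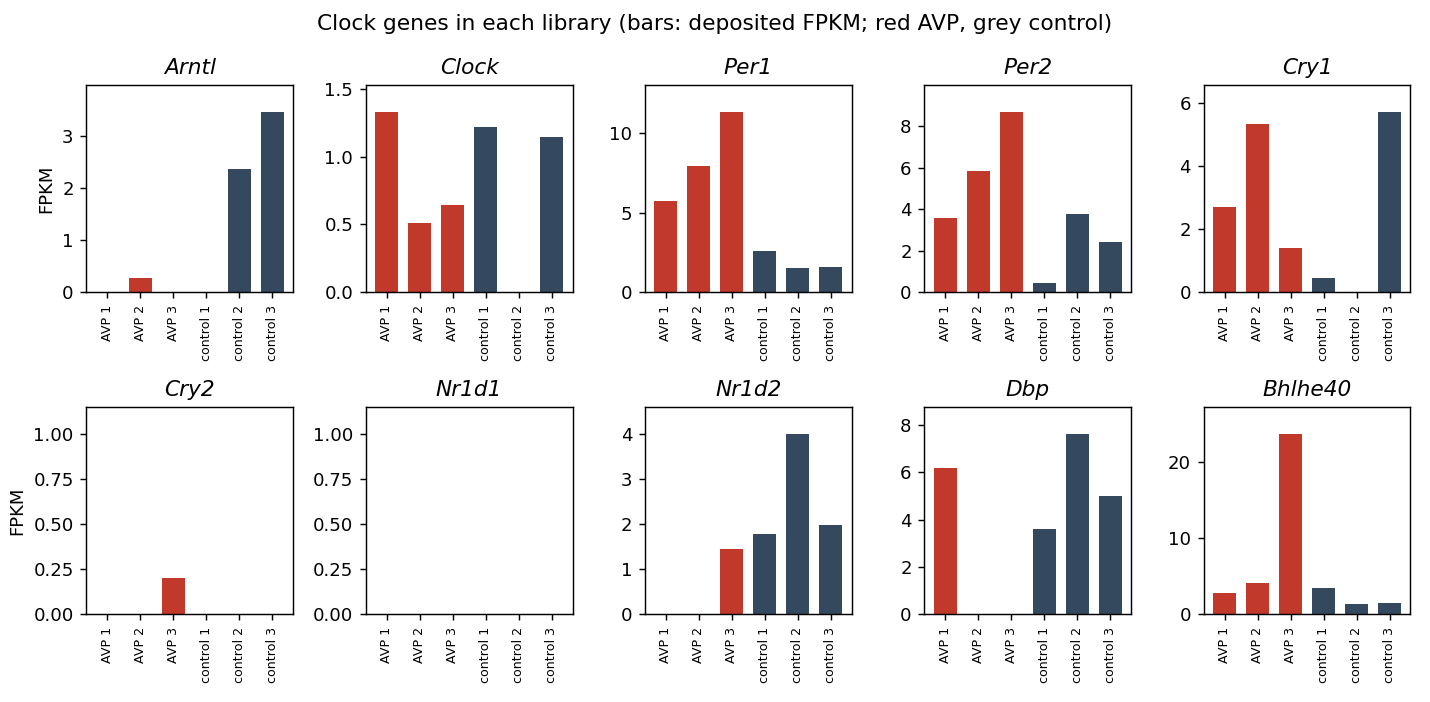
Deposited FPKM (vertical axis, starting at 0, a scale for each gene) of the 10 clock genes in the 3 AVP libraries (red) and the 3 control libraries (grey). Per1 lies between 5.75 and 11.3 FPKM in the AVP libraries and between 1.53 and 2.62 FPKM in the controls, and Nr1d1 is listed at 0 throughout.

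Library depth was estimated at 14200000 to 16800000 fragments from the value that a single fragment adds to short pseudogenes. The commonest such value, shared by 31 to 60 features, was taken within a range set in advance. Likeness in depth between the libraries was therefore partly fixed by the method. The 8 neutrophil markers checked (among them S100a8, Csf3r and Ly6g) were above 0 in every library, with a summed level of 165339 to 193799 FPKM in AVP libraries and 169837 to 190029 FPKM in controls. S100a8 and S100a9 made up most of this sum, so it does not show the other markers to be alike. Retnlg was higher in every AVP library (9729 to 11050 FPKM, against 4925 to 5538 FPKM). Mmp9 was lower in every AVP library (100.5 to 197.4 FPKM, against 229.5 to 374.3 FPKM), and the rest overlapped. Markers of other blood cells were unevenly spread. The 6 T or NK cell markers summed to 0.888, 12.6 and 125 FPKM in AVP replicates 1 to 3 and to 1.66 to 14.4 FPKM in controls, with Cd3e at 0 in every library. The 5 monocyte markers summed to 532, 521 and 105 FPKM in the AVP replicates and to 261 to 614 FPKM in controls. The 5 basophil markers summed to 303 FPKM in AVP replicate 1 and to at most 12.9 FPKM elsewhere. The 5 erythroid markers summed to 242554, 119303 and 135395 FPKM in the AVP replicates and to 102661 to 154851 FPKM in controls, so in AVP replicate 1 they exceeded the neutrophil sum. The 5 B cell markers summed to 605, 1539 and 1078 FPKM in the AVP replicates and to 1473 to 1539 FPKM in controls. The 4 platelet markers (79.8 to 212 FPKM with AVP, 99.5 to 199 FPKM in controls) and the 4 eosinophil markers (4.48 to 6.48 FPKM with AVP, 2.54 to 8.52 FPKM in controls) overlapped. In bulk RNA, fewer cells of a type and less RNA per cell cannot be told apart, and the part of these cells in the results below was not tested beyond the values given.

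The comparison of AVP with control asked which genes differ in blood neutrophils after AVP. It was made with limma over 8523 genes that reached 1 FPKM in at least 3 libraries, on the scale log2(FPKM + 1), which understates the change of low genes. Of the 10 clock genes 7 passed this filter, and Cry2, Arntl and Nr1d1 did not. None of the 7 passed an adjusted p of 0.05, as was true of all genes (0 called, 0%), while an unadjusted p under 0.05 was met by 402 genes higher and 319 lower. At that level 1 clock gene, Per1, was higher (4.72% of all genes) and 0 were lower (3.74% of all genes). The AVP values lay wholly above the controls in 1 clock gene, Per1 (6.39% of all genes), and wholly below in 1, Nr1d2 (7.63% of all genes). These counts of 0 or 1 among 7 genes say nothing of the clock genes as a group. The median log2 fold change was 0.87 over the 7 clock genes and -0.04 over all genes tested, with 5 of the 7 above 0 and 2 below. The clock median is the value of a single gene, Cry1 (SE 0.81), and does not show a shift of the set. It was 0.35 without control replicate 2 and 0.56 without AVP replicate 2, again the values of Cry1, and 1.36 without control replicate 3. With single libraries left out, the clock genes at an unadjusted p under 0.05 stayed at Per1 alone in 3 cases, and were joined by Dbp (lower, without AVP replicate 1), Nr1d2 (lower, without AVP replicate 3) or Cry1 (higher, without control replicate 3). In each of the latter fits the gene that joined reached 1 FPKM in 1 group alone, so the filter selected it for a difference. Over all genes, 296 to 413 were higher and 220 to 416 lower at that level, among 7759 to 7999 tested with a library left out. The smallest p that an exact permutation of 3 libraries against 3 allows is 0.1.

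Per1, a period repressor of the ARNTL and CLOCK pair, lies on chromosome 11 from 69095108 to 69109965 (gene identifier 18626, GRCm38). It stood at 5.75, 7.91 and 11.3 FPKM in the AVP libraries, against 2.62, 1.53 and 1.59 FPKM in the control libraries. Every AVP library was above every control library, and the lowest AVP value was more than the highest control value by a margin larger than the whole spread of the controls. The means were 8.33 ± 2.81 FPKM with AVP, against 1.92 ± 0.616 FPKM in controls (SD, n = 3 each). The fitted log2 fold change was 1.70 (SE 0.58, 95% interval 0.38 to 3.03), with an unadjusted p of 0.0181 and an adjusted p of 0.425 by limma. The exact two-sided permutation test gave p = 0.1, the smallest it can give here. On the deposited scale, where all genes had a median of -0.11, the log2 fold change of Per1 was 1.65.

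Per2, the second period repressor, lies on chromosome 1 from 91415977 to 91459351. It was at 3.55, 5.84 and 8.68 FPKM with AVP, against 0.449, 3.76 and 2.44 FPKM in controls. AVP replicate 1 lay just under control replicate 2, so the groups overlapped, while the other AVP libraries were above all controls. The means were 6.02 ± 2.57 FPKM with AVP, against 2.22 ± 1.67 FPKM in controls (SD, n = 3 each). Its log2 fold change was 1.26 (SE 0.68, 95% interval -0.30 to 2.83, adjusted p = 0.698 by limma). Both Per genes were highest in AVP replicate 3, the library with the most T or NK cell marker RNA, and leaving it out gave a log2 fold change of 1.496 for Per1 and 1.01 for Per2. Without control replicate 1, the lowest library for Per2, its log2 fold change was 0.78.

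The cryptochromes, partners of the PER proteins in repression, did not follow this pattern. Cry1, on chromosome 10 from 85131700 to 85185054, was at 2.73, 5.36 and 1.40 FPKM with AVP, against 0.446, 0 and 5.73 FPKM in controls. Its highest and lowest values were both control libraries, and the log2 fold change of 0.87 (SE 0.81, 95% interval -0.99 to 2.74) was close to its SE. It rested on single libraries, and was 0.35 without control replicate 2, 0.56 without AVP replicate 2 and 1.67 without control replicate 3. In the last of these fits Cry1 reached 1 FPKM in AVP libraries alone, so the filter selected it for that difference. Cry2, on chromosome 2 from 92403646 to 92434085, was listed at 0.202 FPKM in AVP replicate 3 and at 0 in the other 5 libraries. For a transcript of its length 1 FPKM stood for about 59.4 fragments at the estimated depth, which does not show that a listed 0 is an absence.

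The activators were low. Arntl, on chromosome 7 from 113178471 to 113314126, was listed at 0, 0.275 and 0 FPKM in the AVP libraries, against 0, 2.37 and 3.47 FPKM in the controls. The controls held its only values above 1 FPKM, but control replicate 1 was at 0 like AVP replicates 1 and 3. Arntl did not reach the filter, and in a fit without it the log2 fold change was -1.14 (SE 0.61, 95% interval -2.67 to 0.38). Clock, on chromosome 5 from 76209868 to 76305603, was at 1.33, 0.511 and 0.646 FPKM with AVP, against 1.22, 0 and 1.14 FPKM in controls. Its groups overlapped, with a log2 fold change of 0.14 (SE 0.51, 95% interval -1.03 to 1.30) whose sign turned without control replicate 2 (-0.22).

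Per1 and Arntl were also set against each other within each library. On the scale of log2 of (Per1 + 1) over (Arntl + 1), the ratio was 2.75, 2.80 and 3.62 in AVP libraries and 1.86, -0.42 and -0.78 in controls. With Arntl listed at 0 in AVP replicates 1 and 3 and in control replicate 1, the ratio there carries only Per1, so its lack of overlap adds little to that of Per1 itself. The same ratio of Dbp over Arntl was 2.84, -0.35 and 0 in AVP libraries and 2.20, 1.36 and 0.43 in controls, and its groups overlapped; in those 3 libraries it carries only Dbp. With Nr1d1 at 0 throughout, a ratio of it to Arntl carries only Arntl.

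**Figure D2:**
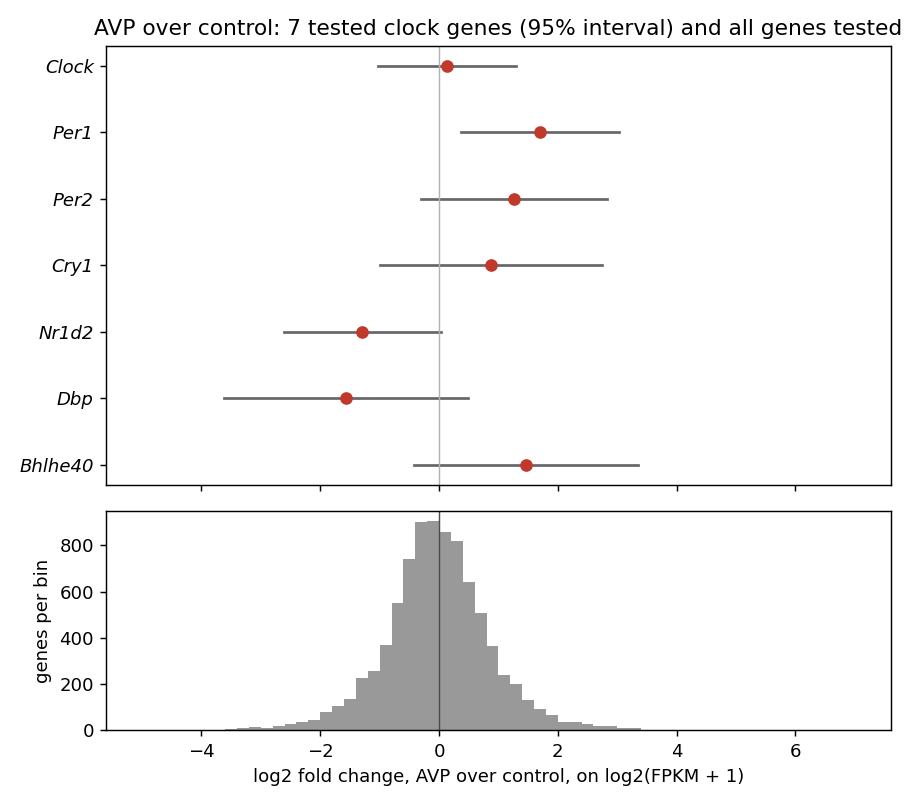
Upper panel: log2 fold change of AVP over control on log2(FPKM + 1) (horizontal axis) for the 7 tested clock genes, with points for the limma estimate and lines for its 95% interval. Lower panel: the number of genes per bin of the same fold change over all 8523 genes tested. The interval of Per1 (0.38 to 3.03) lies above 0 and those of the other 6 genes include 0.

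The nuclear receptor Nr1d2 (REV-ERB beta), a repressor of Arntl, lies on chromosome 14 from 18204056 to 18239106. It was listed at 0, 0 and 1.45 FPKM with AVP, against 1.77, 4.004 and 1.97 FPKM in controls. All 3 AVP libraries were below all 3 controls, with AVP replicate 3 close to the lowest control. The log2 fold change was -1.29 (SE 0.58, 95% interval -2.62 to 0.03), with an unadjusted p of 0.0546 and an adjusted p of 0.602 by limma. Without AVP replicate 3 it was -1.72 (unadjusted p = 0.0136, adjusted p = 0.418). In that fit Nr1d2 reached 1 FPKM in control libraries alone, so the filter selected it for that difference. Nr1d1 (REV-ERB alpha), on chromosome 11 from 98767932 to 98775377, was listed at 0 in all 6 libraries. Its 3′ end overlaps the thyroid hormone receptor gene Thra on the opposite strand, which was at 0 in the AVP libraries, against 0.516, 2.34 and 0 FPKM in the controls.

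Dbp, a PAR bZIP factor that acts on D-box sequences, lies on chromosome 7 from 45705100 to 45710203. It was listed at 6.18, 0 and 0 FPKM with AVP, against 3.61, 7.64 and 5.002 FPKM in controls. All controls were above 3 FPKM, and of the AVP libraries replicate 1 was within the control range while the other two were at 0. Since 1 FPKM of Dbp stood for about 27.5 fragments at the estimated depth, the control values came to roughly 99, 210 and 137 fragments. Such estimates do not show that a listed 0 is an absence, since gaps remained among features at higher levels. The log2 fold change was -1.57 (SE 0.89, 95% interval -3.61 to 0.48, adjusted p = 0.721 by limma), and without AVP replicate 1 it was -2.57 (unadjusted p = 0.00418, adjusted p = 0.452). In the fit without that library Dbp reached 1 FPKM in controls alone, so the filter selected it for that difference. Dbp overlaps Sphk2, a sphingosine kinase gene on the opposite strand, by 737 bases, and without strand information their reads cannot be told apart there. Sphk2 was at 2.83, 6.58 and 0 FPKM with AVP, against 8.26, 3.44 and 1.95 FPKM in controls, so it was above 0 in AVP replicate 2, where Dbp was not.

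Bhlhe40 (DEC1), a repressor that competes for E-boxes and is also induced in activated leukocytes, lies on chromosome 6 from 108660629 to 108666925. It was at 2.76, 4.08 and 23.7 FPKM with AVP, against 3.38, 1.28 and 1.46 FPKM in controls. AVP replicate 3 was far above the other 5 libraries, and AVP replicate 1 was below control replicate 1. The means were 10.2 ± 11.7 FPKM with AVP, against 2.04 ± 1.165 FPKM in controls (SD, n = 3 each), with a log2 fold change of 1.47 (SE 0.82, 95% interval -0.42 to 3.36) that was 0.65 without AVP replicate 3.

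Further clock genes were taken from a list of 12 other clock transcription factors and repressors, of which 3 passed the filter and 4 were at 0 in all libraries, among them Npas2, Arntl2 and Hlf. None of the 3 passed over all genes or at an unadjusted p under 0.05, and all 3 had a fold change above 0. Their median of 0.47 was 0.23 without control replicate 2 and 1.2 without control replicate 3, with 1 to 3 of the genes tested as single libraries were left out. Ciart (CHRONO), a repressor of the ARNTL and CLOCK pair, was at 1.28, 1.03 and 25.3 FPKM with AVP, against 0, 0.757 and 0.124 FPKM in controls. All AVP libraries were above all controls, as for 6.39% of all genes tested. However, Ciart reached 1 FPKM in AVP libraries alone, so the filter had to select it for a difference, and the height came from AVP replicate 3. Its log2 fold change was 1.98 (SE 0.98, unadjusted p = 0.0782). Nfil3, a bZIP repressor at the same D-box sites as DBP, was at 20.9, 6.08 and 4.10 FPKM with AVP, against 9.78, 3.95 and 5.53 FPKM in controls, and was the highest clock factor in AVP replicate 1 and control replicate 1. Bhlhe41 (DEC2) was at 0, 2.55 and 1.70 FPKM with AVP, against 0, 0.408 and 2.52 FPKM in controls. Tef, a relative of Dbp, was at 0 in all AVP libraries, against 1.79, 0.0410 and 0.0818 FPKM in controls, and Per3 was listed above 0 in control replicate 3 alone (1.80 FPKM).

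**Figure D3:**
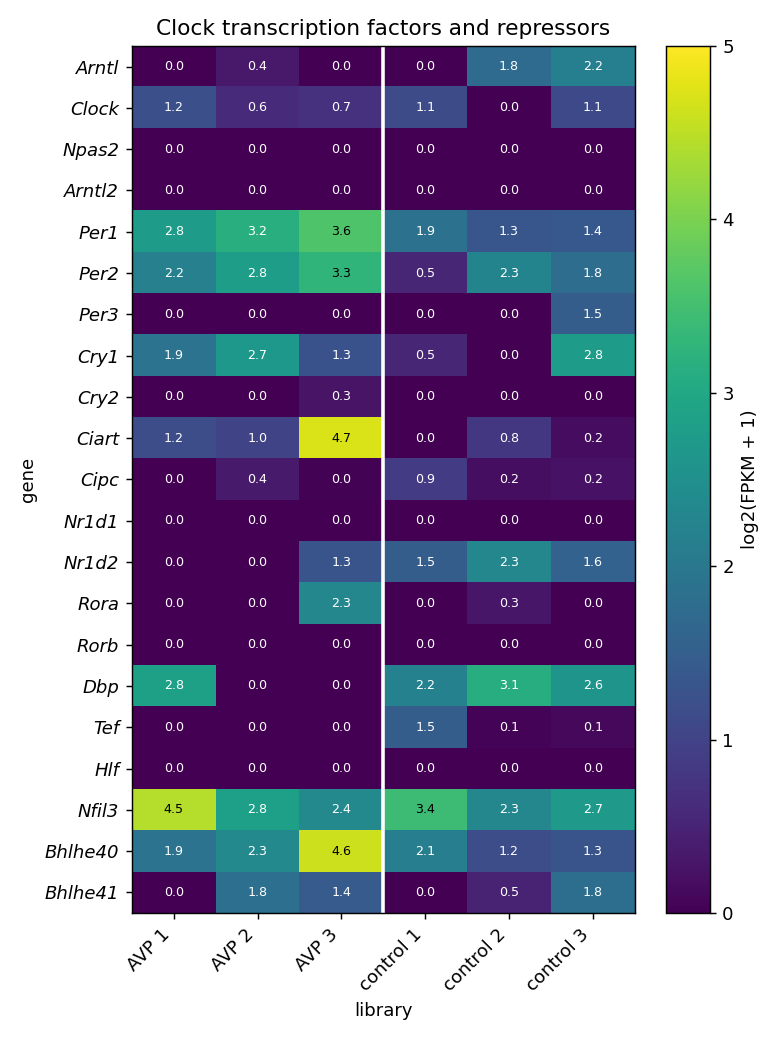
Level of the clock transcription factors and repressors (rows) in the 3 AVP and 3 control libraries (columns), as log2(FPKM + 1), printed in each cell. Ciart and Bhlhe40 reach 4.7 and 4.6 in AVP replicate 3, and most rows hold at least 1 library at 0.

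AVP replicate 3 thus stood apart for Bhlhe40 and Ciart. The same library had the T cell receptor gene Trac at 52.4 FPKM, at 0 in the other 5, and the cytotoxic granule gene Nkg7 at 44.3 FPKM, against 0.888 to 1.67 FPKM elsewhere. Its monocyte markers, at 105 FPKM in sum, were the lowest of the 6 libraries. The part of these cells in the Bhlhe40 and Ciart values was not tested.

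**Figure D4:**
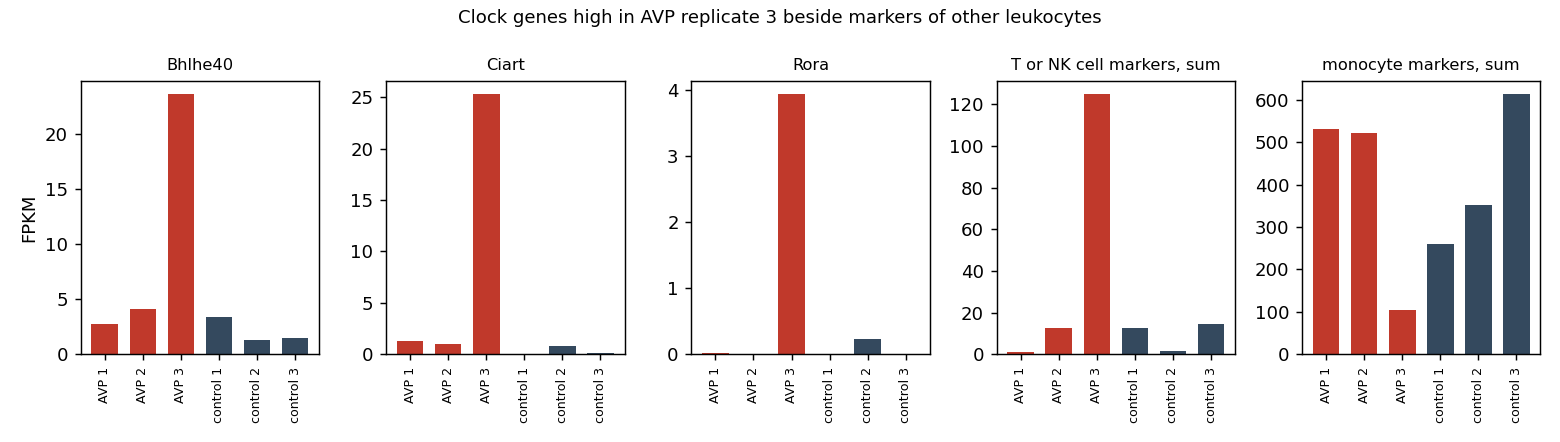
FPKM of Bhlhe40, Ciart and Rora and the summed FPKM of 6 T or NK cell and 5 monocyte markers (vertical axes from 0, a scale for each panel) in the AVP (red) and control (grey) libraries. AVP replicate 3 is the highest library in the first 4 panels, with 125 FPKM of T or NK cell markers, and the lowest in the monocyte panel, with 105 FPKM.

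Kinases, ubiquitin ligases and proteases that set the stability of clock proteins had groups that overlapped for every tested gene. Of 14 listed, 11 were tested, with 0 higher and 0 lower, both over all genes and at an unadjusted p under 0.05 (median log2 fold change 0.32, and 0.21 to 0.58 with single libraries left out). Csnk2b, the regulatory subunit of casein kinase 2, had the smallest p, at 76.5, 33.4 and 56.8 FPKM with AVP, against 37.7, 15.0 and 52.9 FPKM in controls (log2 fold change 0.82, SE 0.54). Fbxw11, a ubiquitin ligase subunit that targets PER, was at 8.63, 6.55 and 3.22 FPKM with AVP, against 3.08, 3.70 and 2.14 FPKM in controls (0.85, SE 0.62). Gsk3b, a kinase, had a fold change close to its SE (0.57, SE 0.54). Of 10 coregulators 9 were tested, again with 0 past either threshold (median 0.45, and 0.27 to 0.53 with single libraries left out). Hdac3, the deacetylase recruited by REV-ERB receptors, was at 1.40, 22.3 and 18.3 FPKM with AVP, against 1.89, 3.10 and 0 FPKM in controls, so AVP replicate 1 was within the control range (2.18, SE 0.98). Without AVP replicate 1, 1 coregulator was higher at an unadjusted p under 0.05, as were 296 of all 7999 genes then tested. Sfpq (0.60, SE 0.53), Nono (0.45, SE 0.40) and Crebbp (0.46, SE 0.52) followed.

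Of 6 genes that the clock drives in many tissues, 5 were tested and 0 passed over all genes, while at an unadjusted p under 0.05 there were 2 higher (4.72% of all genes) and 0 lower (3.74% of all genes). The list median of 0.49 rested on single libraries, and was -0.11 without AVP replicate 1 and -0.12 without AVP replicate 3, where 4 genes were tested. Cdkn1a, the cell cycle inhibitor p21, was at 1.47, 36.9 and 14.0 FPKM with AVP, against 0, 0.314 and 0.203 FPKM in controls (log2 fold change 3.24, SE 0.95, adjusted p = 0.34 by limma). It reached 1 FPKM in AVP libraries alone, so the filter selected it for that difference. Klf10, a zinc finger factor, was at 17.8, 22.5 and 16.9 FPKM with AVP, against 5.85, 4.43 and 9.71 FPKM in controls (1.51, SE 0.47, adjusted p = 0.378). AVP values lay wholly above the controls for both genes, as for 6.39% of all genes tested. With any AVP library left out, Cdkn1a missed the filter, and 1 of 4 genes tested was higher at an unadjusted p under 0.05. Over all genes 296 to 369 were higher in those fits, among 7759 to 7999 tested. Nampt, which makes NAD in a clock-linked cycle, pointed the other way, at 11.8, 11.1 and 22.5 FPKM with AVP, against 25.3, 26.5 and 14.9 FPKM in controls (-0.47, SE 0.46), and Por stood at -0.36 (SE 0.38).

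The 8 genes of diurnal neutrophil ageing were all tested, with 0 past the threshold over all genes. At an unadjusted p under 0.05 there were 2 higher (4.72% of all genes) and 0 lower (3.74% of all genes). The median log2 fold change of 0.00 ranged from -0.034 to 0.16 with single libraries left out. Cxcl2, the chemokine through which Arntl is known to drive ageing in the mouse, was at 2098, 2019 and 2611 FPKM with AVP, against 9.67, 28.8 and 135 FPKM in controls (log2 fold change 6.07, SE 0.78, adjusted p = 0.0655 by limma). Cxcr4, the receptor that is high on aged neutrophils and directs them to the bone marrow, was at 51.9, 59.7 and 63.1 FPKM with AVP, against 26.5, 35.9 and 27.3 FPKM in controls (1.03, SE 0.31, adjusted p = 0.349). AVP values lay wholly above the controls for both genes, as for 6.39% of all genes tested. Itga4, an integrin of aged cells, was lower in every AVP library, as were 7.63% of all genes tested. It was at 13.6, 18.0 and 17.2 FPKM with AVP, against 26.2, 32.0 and 30.0 FPKM in controls (-0.74, SE 0.35).

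Per1 is known to respond to glucocorticoids and to cAMP, and genes of both pathways are given beside it. Both lists were chosen with earlier results of these data known, and the part of either pathway in the Per1 values was not tested. Of 8 glucocorticoid-induced genes tested, 0 passed over all genes, while at an unadjusted p under 0.05 there were 4 higher (4.72% of all genes) and 0 lower (3.74% of all genes), with a median of 0.70. Tsc22d3, the glucocorticoid-induced leucine zipper, was at 233, 337 and 248 FPKM with AVP, against 145, 136 and 143 FPKM in controls (1.01, SE 0.22). Dusp1, a MAP kinase phosphatase, had a fitted difference of 0.90 (SE 0.20), Zfp36, an mRNA decay factor, one of 1.05 (SE 0.27) and Sgk1, a kinase, one of 1.11 (SE 0.36). AVP values lay wholly above the controls for these 4, as for 6.39% of all genes tested. Fkbp5, another glucocorticoid target, was at 1.67, 0.0639 and 0.835 FPKM with AVP, against 1.89, 0 and 4.08 FPKM in controls, with overlap. Klf9 (0.49, SE 0.70) and Zbtb16 (0.21, SE 0.60) also had groups that overlapped. So did Nr3c1 (-0.21, SE 0.39), which is on this list although it is the glucocorticoid receptor itself. Of 8 cAMP and CREB genes 7 were tested, 0 passed over all genes, while at an unadjusted p under 0.05 there were 2 higher (4.72% of all genes) and 0 lower (3.74% of all genes). The median of 0.27 was 0.031 without control replicate 1 and 0.59 without control replicate 2, its range with single libraries left out. The higher genes were Fosb, an AP-1 subunit, at 37.0, 21.4 and 31.6 FPKM with AVP, against 3.07, 2.02 and 2.15 FPKM in controls (3.22, SE 0.50), and the nuclear receptor Nr4a1 (1.47, SE 0.55), whose groups overlapped. Sik1 (0.90, SE 0.65), a kinase that holds back CREB coactivators, and Crem (-0.89, SE 0.69) had groups that overlapped. The count of higher cAMP and CREB genes was 1 without AVP replicate 1, AVP replicate 2, control replicate 1 or control replicate 2. Over all genes 296 to 353 were higher in those fits, among 7759 to 7999 tested.

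**Figure D5:**
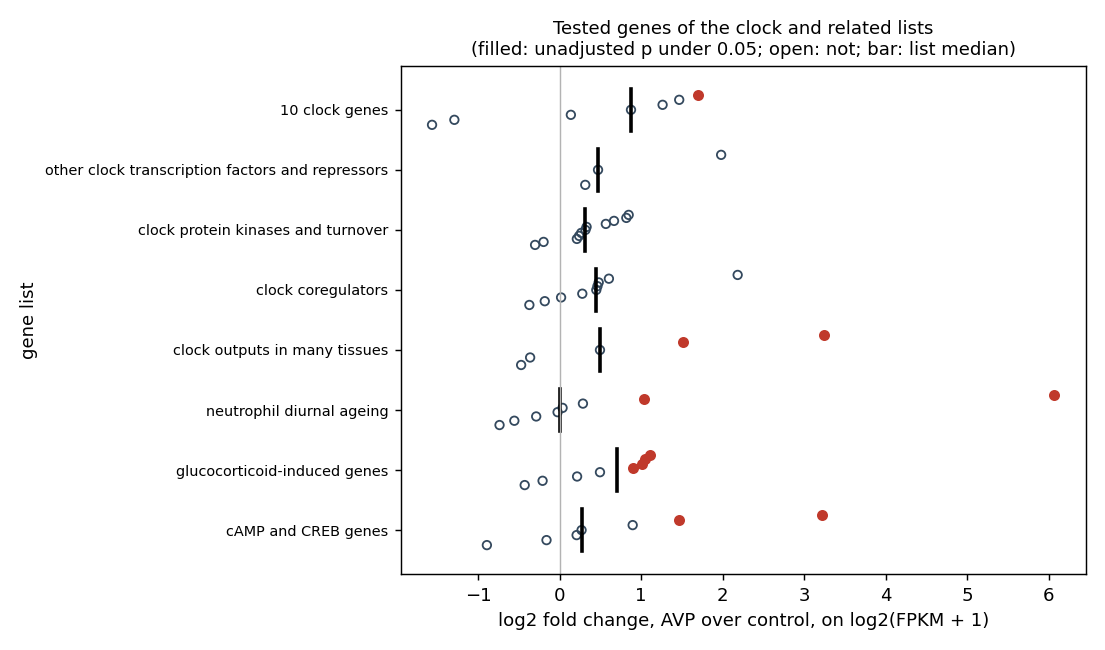
Log2 fold change of AVP over control on log2(FPKM + 1) (horizontal axis) for the tested genes of each list (vertical axis), filled where the unadjusted p is under 0.05, with a bar at the list median. The medians run from 0.00 (neutrophil diurnal ageing) to 0.87 (10 clock genes, of which 7 were tested), and Cxcl2 lies farthest to the right at 6.07.

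The genes whose pattern over the 6 libraries was most like Per1, by Pearson's r of log2(FPKM + 1) among 4417 protein-coding genes with a mean of at least 5 FPKM, were Pofut2, a protein O-fucosyltransferase (r = 0.996), and Ethe1, a mitochondrial sulphur dioxygenase (r = 0.988). Pofut2 was at 13.3, 16.9 and 20.5 FPKM with AVP, against 8.15, 5.23 and 6.18 FPKM in controls. Ethe1 was at 38.2, 52.7 and 62.8 FPKM with AVP, against 21.9, 12.1 and 11.1 FPKM in controls. For Dbp they were Ncf1, the p47 subunit of the phagocyte NADPH oxidase (r = 0.989), and D17H6S56E-5 (r = 0.979). Ncf1 was at 60.5, 13.0 and 15.9 FPKM with AVP, against 58.0, 82.4 and 66.1 FPKM in controls, so AVP replicate 1 stood with the controls as it did for Dbp. With 6 libraries, 26 genes had an r above 0.95 with Per1 and 11 with Dbp, so such likeness is a description only. Arntl and Nr1d1 were not tested and have no such list.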

How the data were processed

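Total RNA of sorted blood neutrophils was extracted with TRIZOL, made into libraries with an Illumina TruSeq kit and sequenced as read pairs, per the labels' protocols. The submitters' processing notes name HISAT2 2.1, featureCounts 1.6.4, DESeq2 2.11.40.6, cutadapt 1.16.5 and bcl2fastq 2.19 with the mm10 build, without saying what each made. The deposited values are read as FPKM: the files state no unit, and the values are not whole and total 755140 to 829725, a different sum in each library. No counts were used, so depth is an estimate and intervals rest on the spread between libraries.

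Of 47561 features, 44705 matched a gene name in RefSeq (GRCm38.p6), which gave coordinates and promoters. Transcript lengths behind fragments per FPKM are from GENCODE M21. Scaling used trimmed mean log ratios (leaving out the outer 30% of ratios and 5% of levels on each side), and limma 3.58.1 in R 4.3.3 with an intensity trend was fitted across all 8523 genes passing 1 FPKM in 3 libraries, with Benjamini-Hochberg adjustment and no replicate term. It was tested on simulated data. Printed FPKM are unscaled. Likeness was computed in R and ratios in Python 3.11.15. The clock genes and all lists were chosen with earlier results of these data known. Named genes are the 10 clock genes, up to 4 of the smallest p in each other list, and the 2 most like Per1 and Dbp; others named were chosen after their values were seen, and a few genes that the rule takes are not reported here. Alternatives covered scaling, filter, pseudocount, variance moderation, removal of abundant genes, a replicate block and each library left out.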

Additional observations from a re-analysis of the deposited data

Results flagged for a closer look

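Rora, the ROR alpha receptor that activates Arntl, lay outside the tested genes because it did not reach 1 FPKM in 3 libraries. It was at 3.94 FPKM in AVP replicate 3, against 0.229 FPKM or less in the controls and 0.00983 FPKM or less in the other AVP libraries. It is given because the value exceeds every control, and AVP replicate 3 is also the library with 125 FPKM of T or NK cell markers; the part of such cells was not tested.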

How the results depend on the processing

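Per1 stayed higher under all 15 alternatives that kept it, with a log2 fold change of 0.94 to 2.13, an unadjusted p of 0.00455 to 0.0498 and an adjusted p of 0.307 to 0.734 by limma. Nr1d2 (-3.25 to -0.44) and Dbp (-3.59 to -0.58) stayed lower, and Per2, Cry1 and Bhlhe40 higher, in all 15, without an adjusted p under 0.05. Clock turned to -0.22 without control replicate 2, where its only control at 0 is left out. The median over the clock genes ranged from 0.28 (pseudocount 5) to 1.79 (pseudocount 0.1). Over all genes, where 0 were higher and 0 lower, 11 were higher with a filter of 10 FPKM, which no clock gene passed, 7 with a pseudocount of 5 and 1 without the intensity trend, and 0 to 4 with a library left out. The count of lower genes stayed at 0. At an unadjusted p under 0.05, more genes were lower than higher on the deposited scale (346 higher, 376 lower), where the median of all genes was -0.11. The shared replicate numbers gave no sign of pairing. After each gene's group mean was subtracted, what remained had correlations of 0.02, -0.01 and -0.04 between same-numbered libraries. With a replicate block Per1 had a p of 0.0419 by limma (adjusted p = 0.614) and 0 genes passed. Counts in lists with each library left out, added after seeing the data, gave 4 glucocorticoid-induced and 2 ageing genes higher each time, and 0 kinase and turnover genes. Of the glucocorticoid-induced genes 7 or 8 were tested in these fits. Over all genes 296 to 413 were higher at that level, among 7759 to 7999 tested. With values this low and often 0, smaller differences were not detectable.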
